A study of Mus musculus with 6 samples.

Results

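Serpins and other protease inhibitors were examined in mouse group 2 innate lymphoid cells (ILC2s) with and without a CRISPR knockout of Cbfb. The genes were all named rows whose symbol begins with Serpin, together with Slpi, Cst3, Cst7, Cstb, Spint1 and Spint2. They number 62 of the 25206 rows on the array, 56 serpins and 6 others. ILC2s are lymphocytes without antigen receptors that make type 2 cytokines when stimulated by IL-33, and CBFβ is the partner that stabilises RUNX transcription factors on DNA. Expression was measured in ILC2 lines of the C57BL/6J strain kept in IL-2 and IL-33, each at 10 ng/ml. Cells of both groups received a lentiviral CRISPR construct that also carries GFP. In the control group the guide RNA was a non-target control, and in the knockout group it targeted Cbfb. At day 6 after transduction the GFP-positive cells were collected by sorting, and each group had 3 arrays. The labels give neither the age nor the sex of the mice, nor do they say whether the arrays of a group came from separate cultures. The spread behind each p-value is thus that between these arrays and may be technical.

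Serpins trap a protease when it cuts an exposed loop, which deforms the serpin and holds the enzyme in a dead complex. Clade A serpins are mostly secreted plasma proteins made by the liver, whereas clade B serpins mostly stay inside cells and protect them from their own proteases or from those of neighbours. Cystatins block the papain-like cysteine cathepsins of lysosomes, proteins with a WAP domain such as SLPI block neutrophil-type serine proteases, and Kunitz proteins such as SPINT1 and SPINT2 block membrane-bound serine proteases. Cytotoxic lymphocytes carry granzymes and cathepsins in their granules and depend on such inhibitors to survive them.

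Of the 62 genes, Slpi and Cst3 rose in the knockout, Serpinb9 fell, and the other 59 did not pass the test (limma adjusted p under 0.05 over all rows). Over the whole array 9.75% of rows passed, 5.51% as higher and 4.24% as lower. For the 62 genes the share was 4.84%. Slpi, which encodes an inhibitor of neutrophil elastase and cathepsin G, rose by 1.38 on the log2 scale, and Cst3, the gene of the secreted cathepsin inhibitor cystatin C, rose by 0.55. Serpinb9, whose product is an intracellular inhibitor of granzyme B, fell by 1.63. Control and knockout arrays were fully separate for 8 of the 62 genes (12.9%), against 27.5% of all rows. That count was 13 without control replicate 1, 15 without control replicate 2 and 20 without knockout replicate 1, where fewer arrays make non-overlap easier. The median difference over the 62 genes was -0.012 and over all rows -0.0067.

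The start regions of the genes that passed are shown because RUNX proteins, the partners of CBFβ, bind the letters TGTGGT. The windows run from 250 bases before to 50 bases after the annotated start (RefSeq, GRCm38.p6). They lie at chr2:164356458-164356757 (minus strand) for Slpi, chr13:33004291-33004590 (plus strand) for Serpinb9 and chr2:148875463-148875762 (minus strand) for Cst3. Letters in capitals mark TGTGGT, and the other letters are in lower case.
Slpi: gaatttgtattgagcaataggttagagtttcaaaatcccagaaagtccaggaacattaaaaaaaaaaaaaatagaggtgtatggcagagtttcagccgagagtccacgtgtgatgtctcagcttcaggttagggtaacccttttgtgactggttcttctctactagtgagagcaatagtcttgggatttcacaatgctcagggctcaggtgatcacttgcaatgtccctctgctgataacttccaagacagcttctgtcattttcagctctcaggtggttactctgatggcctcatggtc
Serpinb9: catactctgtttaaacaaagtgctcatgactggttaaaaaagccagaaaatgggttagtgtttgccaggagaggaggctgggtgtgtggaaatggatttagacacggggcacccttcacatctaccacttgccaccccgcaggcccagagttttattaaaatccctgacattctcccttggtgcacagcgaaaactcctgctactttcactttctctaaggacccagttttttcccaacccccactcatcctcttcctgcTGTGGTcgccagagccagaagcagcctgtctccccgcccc
Cst3: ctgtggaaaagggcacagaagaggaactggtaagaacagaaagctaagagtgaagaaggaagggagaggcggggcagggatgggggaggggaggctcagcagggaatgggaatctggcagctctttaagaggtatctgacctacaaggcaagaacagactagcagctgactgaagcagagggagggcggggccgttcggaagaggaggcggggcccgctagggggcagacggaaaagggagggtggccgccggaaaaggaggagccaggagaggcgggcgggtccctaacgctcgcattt

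Serpinb9 held TGTGGT once, on the gene's strand, at bases 11 to 16 counted from the start. Its annotated gene has a further start elsewhere, so this window covers 1 of its starts. Neither Slpi nor Cst3 held these letters in the window on either strand. Among the other genes, Cst7 held the motif 188 bases before the start and Serpinf1 held it at 117 and at 90 bases before. RefSeq windows were matched for 54 of the 62 genes, 63 windows in all, and 17 of them (27%), from 15 genes, held TGTGGT or its reverse complement. Among all 32851 RefSeq windows 16.8% held it. The variant TGCGGT was in none of the 63 windows and in 6.45% of all windows. An NF-κB type motif, GGG followed by any 2 bases and TTTCC, was searched on both strands because IL-33 signals through NF-κB. It was in 2 of the 63 and in 1.63% of all windows, and in none of the 3 printed here. No match overlapped another in the printed windows. These are matches of letters and not measured binding sites.

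The values are log2 expression values, with array medians of 3.57 to 3.63 and a median of all group means of 3.6. Below that value the table has no detection calls to tell signal from background, and differences of genes there can be understated. Of the 62 genes 10 read above 3.6 in the higher group and 52 did not, among them 51 of the 56 serpins. None of those 52 passed limma's test, and 2 had an unadjusted p under 0.05, where 1.05% of all rows at such values passed. The 10 genes above 3.6 hold the 3 that passed, 2 higher and 1 lower. Of all rows above that value 18% passed, 10.3% as higher and 7.77% as lower. Groups were separate for 7 of the 10 genes, against 43.8% of all rows above 3.6. They were separate for 1 of the 52, against 10.5% of all rows at such values. The level used the higher group, so these shares are descriptions. Arrays within a group correlated at 0.9946 to 0.996 across rows, and arrays of different groups at 0.988 to 0.9908. The targeted gene Cbfb read 8.53, 8.73 and 8.70 in the control and 7.88, 7.69 and 7.91 in the knockout arrays (difference -0.83, limma adjusted p = 0.00205), which measures its transcript and not the edit. The number of arrays limits the precision.

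**Figure D1:**
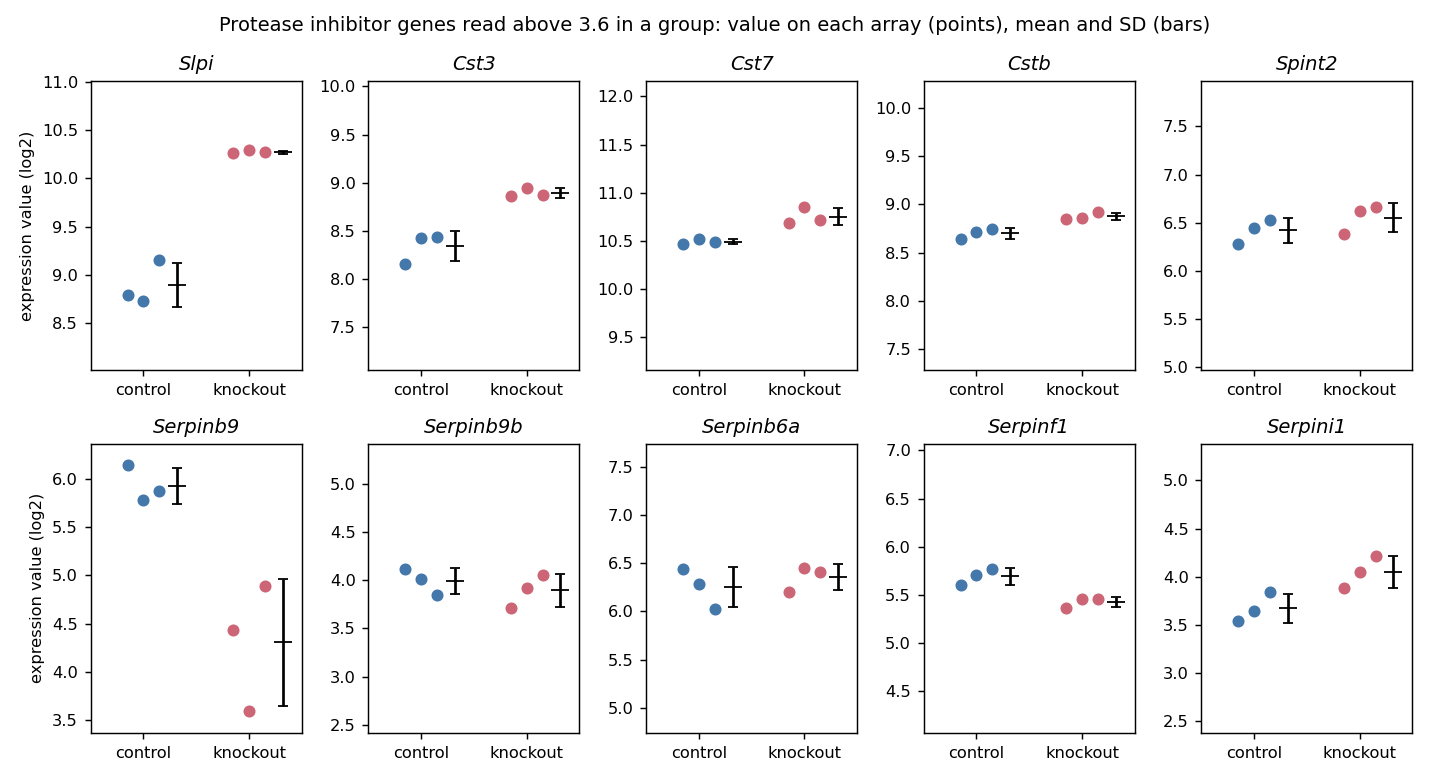
Expression value (log2) on each of the 3 control and 3 knockout arrays for the 10 protease inhibitor genes above 3.6, with the group mean and SD as bars; every panel spans 3 log2 units. Slpi lies at 8.73 to 9.15 in control and 10.26 to 10.29 in knockout arrays, and Serpinb9 at 5.78 to 6.14 and 3.59 to 4.89.

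For Slpi the control arrays read 8.79, 8.73 and 9.15, and the knockout arrays read 10.26, 10.29 and 10.27. The knockout arrays lie close together, and each is above every control array. The mean rose from 8.89 ± 0.23 to 10.27 ± 0.015 (SD, n = 3 arrays per group), or 2.61-fold with a 95% interval of 2.16 to 3.15 (limma adjusted p = 0.000508). It passed in all 15 alternatives, with adjusted p from 4.05e-06 to 0.0246. SLPI is a small secreted protein that also dampens NF-κB signalling in macrophages.

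Slpi stands at the end of a run of WAP-domain and seminal vesicle genes in RefSeq gene order. From Wfdc5 to Slpi 3 of the 11 named rows rose, where 5.51% of all rows did. Wfdc5, a WAP-domain gene, read 6.73, 6.74 and 6.62 in control and 8.09, 8.20 and 8.14 in knockout arrays. Its difference was 1.45 (limma adjusted p = 9.57e-05). Its neighbour Wfdc12, which encodes another small WAP-domain protein, read 9.61, 9.70 and 9.80 in control and 10.42, 10.47 and 10.39 in knockout arrays. Its difference was 0.72 (limma adjusted p = 0.00191). For both genes, as for Slpi, all 3 knockout arrays are above all 3 control arrays. The other 8 rows of the run, Wfdc15a, Wfdc15b and 6 seminal vesicle genes, had group means of 1.3 to 3.42 and differences of -0.22 to 0.28, and none passed. Of the 6 named rows on each side of Slpi, 12 in all, none passed. Both Wfdc5 and Wfdc12 lie farther along the run than that. The run was looked at after the values of these genes were seen, and it was cut at Wfdc5 and Slpi, which both rose. Its count of rises therefore depends on where it was cut.

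The 3 cystatins among the 62 genes each read higher in every knockout array than in any control array, and 1 of them passed. Groups were also separate for 27.5% of all rows, and for 43.8% of the rows above 3.6, where all 3 cystatins lie. For Cst3 the control arrays read 8.16, 8.43 and 8.44, and the knockout arrays read 8.86, 8.95 and 8.87. The mean rose from 8.34 ± 0.16 to 8.89 ± 0.049 (SD, n = 3), or 1.46-fold with a 95% interval of 1.25 to 1.72 (limma adjusted p = 0.0124). With any 1 of the 6 arrays left out it still passed (adjusted p 0.0271 to 0.0491), and it missed without moderation of the variance (adjusted p = 0.0667; 0.000635 to 0.0667 over 15 alternatives).

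Cst7 encodes cystatin F, which controls cathepsins in the granules of cytotoxic cells. It read 10.47, 10.52 and 10.49 in control and 10.69, 10.85 and 10.72 in knockout arrays. The difference of 0.26 (95% interval 0.07 to 0.45) did not pass (limma adjusted p = 0.0962). It passed with a trended and robust prior (adjusted p = 0.00406) and among rows above the median mean level (adjusted p = 0.0319), with 0.00406 to 0.256 over 15 alternatives. Cstb, the gene of the cytosolic inhibitor cystatin B, read 8.64, 8.71 and 8.75 in control and 8.85, 8.86 and 8.92 in knockout arrays. Its difference of 0.18 (95% interval -0.0053 to 0.36) did not pass (limma adjusted p = 0.232).

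Cst10, the row next to Cst3 in RefSeq order, rose with it. This further cystatin gene read 5.11, 5.54 and 5.32 in control and 6.84, 6.98 and 6.96 in knockout arrays, a difference of 1.60 (limma adjusted p = 0.00026). On the other side of Cst3 the 6 nearest rows, which are cystatins or cystatin-like genes, did not pass and had differences of -0.10 to 0.15. Their group means were 1.54 to 3.24, under 3.6, where differences can be understated. Syndig1, the third row beyond Cst3 on the side of Cst10, fell by 0.34 (adjusted p = 0.0464), and lost the call whichever of the 6 arrays was left out (adjusted p 0.0726 to 0.15).

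Cst3 and Slpi are also abundant in macrophages and dendritic cells. Of 12 measured myeloid markers none passed limma's test in either direction, 0 had an unadjusted p under 0.05, and 2 read above 3.6. Their summed log2 values were 33.67 to 35.12 in control and 33.01 to 34.85 in knockout arrays. The 2 above 3.6 were Cd68 (5.87 in control and 5.84 in knockout) and Itgam (3.43 and 3.70), and the groups overlap for both. Csf1r and Adgre1, which define macrophages, lay between 1.9 and 3.08 on all 6 arrays. The part of myeloid cells in the results was not tested.

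The Kunitz inhibitors did not pass. Spint2, whose product blocks the membrane proteases matriptase and hepsin, read 6.28, 6.45 and 6.53 in control and 6.38, 6.62 and 6.66 in knockout arrays. The groups overlap, with a difference of 0.13 (95% interval -0.12 to 0.38, limma adjusted p = 0.552). Spint1, its relative, read 3.56, 3.19 and 3.40 in control and 3.52, 3.46 and 3.20 in knockout arrays, under 3.6 and overlapping (difference 0.01, 95% interval -0.28 to 0.30). St14, the gene of matriptase, read 4.52 ± 0.08 in control and 4.16 ± 0.19 in knockout arrays, without overlap; its difference was -0.36 (adjusted p = 0.0919, and 0.0392 to 0.241 over 15 alternatives).

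Among the serpins 1 of 56 genes passed, and 22 had a positive and 34 a negative difference, with a median of -0.033. Over all 25206 rows 12309 differences were positive and 12835 negative. Clade B, the intracellular branch, had 27 of them. For Serpinb9 the control arrays read 6.14, 5.78 and 5.87, and the knockout arrays read 4.43, 3.59 and 4.89. Every knockout array is below every control array, and the knockout arrays are spread over more than 1 log2 unit. The mean fell from 5.93 ± 0.19 to 4.30 ± 0.66 (SD, n = 3). The fall was 3.09-fold, and the ratio of knockout to control signal was 0.324 with a 95% interval of 0.205 to 0.512 (limma adjusted p = 0.011). With any 1 of the 6 arrays left out the fall still passed, with differences of -1.92 to -1.27 and adjusted p from 0.00612 to 0.0498. Without moderation of the variance it missed (adjusted p = 0.123; 0.00236 to 0.123 over 15 alternatives).

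Serpinb9 has 7 measured relatives, Serpinb9b to Serpinb9h. None passed limma's test, 1 had an unadjusted p under 0.05, and all 7 differences were negative, from -0.34 to -0.0033. Serpinb9b read 4.12, 4.01 and 3.85 in control and 3.71, 3.92 and 4.05 in knockout arrays, and its groups overlap (difference -0.10, 95% interval -0.37 to 0.17, limma adjusted p = 0.693). The other 6 read under 3.6, and Serpinb9g had the most negative of their differences, -0.34 (adjusted p = 0.214). Whether the probes tell the transcripts of these relatives apart was not tested.

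In RefSeq order Serpinb9 lies in a run of 16 clade B genes, of which 13 had a negative difference and 1 passed. Of all 25206 rows 12835 had a negative difference. Of the 6 named rows on each side of Serpinb9, 9 are serpins and none of those passed. Gmds, an enzyme gene of fucose synthesis and the sixth row on the side of Serpinb1a, fell from 8.02 to 7.36 (difference -0.66, limma adjusted p = 0.0025). Serpinb6b, next to Serpinb9, read 2.68, 2.78 and 2.76 in control and 2.42, 2.15 and 2.72 in knockout arrays. That difference of -0.31 did not pass (limma adjusted p = 0.233).

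Serpinb6a, whose human counterpart inhibits cathepsin G, read 6.44, 6.28 and 6.03 in control and 6.20, 6.45 and 6.41 in knockout arrays. The groups overlap (difference 0.10, 95% interval -0.18 to 0.39, limma adjusted p = 0.707). Serpinb1a, an inhibitor of neutrophil serine proteases, read 2.68 ± 0.16 and 2.46 ± 0.25, and Serpinb2, the gene of the urokinase inhibitor PAI-2, read 1.69 ± 0.02 and 1.84 ± 0.17 in control and knockout arrays. Neither passed (adjusted p = 0.41 and 0.446). Serpinb1c was the 1 gene of the 52 under 3.6 whose groups did not overlap, where 10.5% of all rows at such values had separate groups. It read 2.50 to 2.73 in control and 2.24 to 2.48 in knockout arrays (difference -0.26, adjusted p = 0.177). The second run of clade B genes, 11 genes from Serpinb5 to Serpinb8, had 6 negative differences and none passed.

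**Figure D2:**
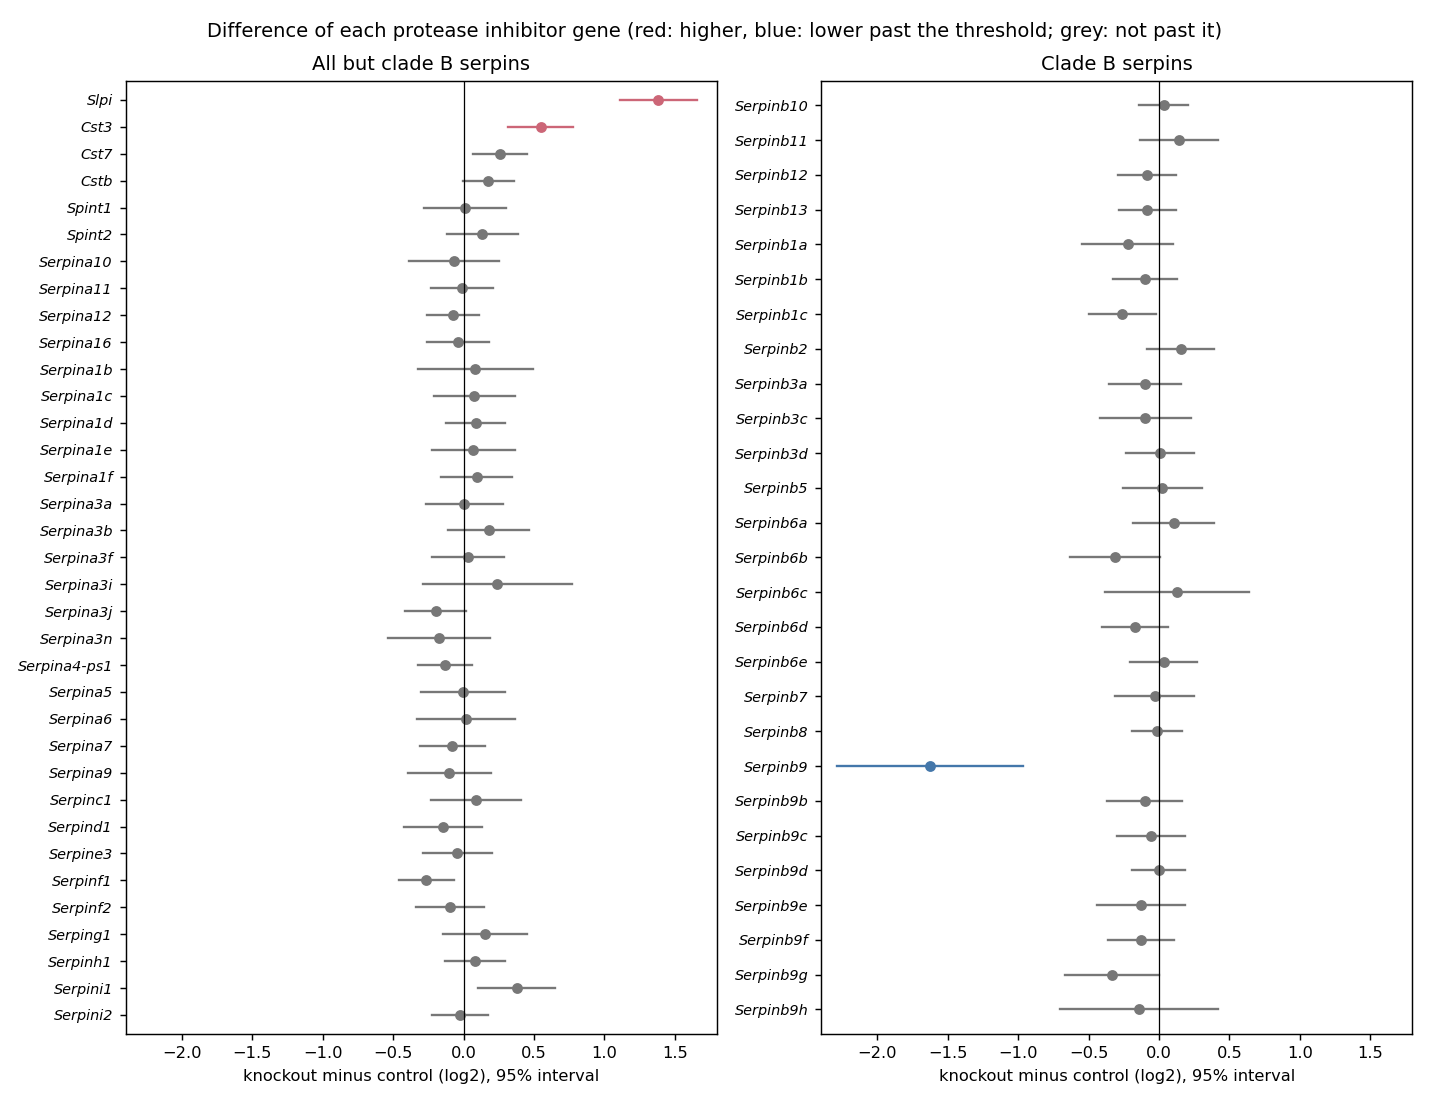
Difference between knockout and control (log2) of each of the 62 genes as a point, with its 95% interval as a line; clade B serpins are on the right. Slpi (1.38) and Cst3 (0.55) lie to the right of 0 and Serpinb9 (-1.63) to the left.

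Clade A serpins, the plasma branch, had 20 measured genes. None passed limma's test, and 0 had an unadjusted p under 0.05. Their group means lay between 1.24 and 3.18, all under 3.6, and their differences between -0.20 and 0.24. The groups overlapped for each of the 20, where 10.5% of all rows at or below 3.6 had separate groups. The 5 Serpina1 genes, which encode forms of α1-antitrypsin, the main plasma inhibitor of neutrophil elastase, had differences of 0.07 to 0.093. Of the 6 Serpina3 genes, relatives of human α1-antichymotrypsin, Serpina3n read 2.99, 2.42 and 2.39 in control and 2.47, 2.37 and 2.44 in knockout arrays. Its difference of -0.17 rests on control replicate 1 and was 0.022 without it. Serpina3f read 1.99 ± 0.16 and 2.02 ± 0.13. None of 6 hepatocyte markers passed (0 with an unadjusted p under 0.05), with summed log2 values of 19.43 to 19.68 in control and 19.49 to 20.23 in knockout arrays.

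The remaining serpins belong to clades C to I and number 9 genes. None passed limma's test, and 2, Serpinf1 and Serpini1, had an unadjusted p under 0.05. Serpinf1, the gene of the secreted factor PEDF, read 5.60, 5.71 and 5.77 in control and 5.37, 5.46 and 5.46 in knockout arrays. The groups do not overlap, and the difference of -0.26 (95% interval -0.46 to -0.068) did not pass (limma adjusted p = 0.101). It passed after a second quantile normalisation (difference -0.35, adjusted p = 0.0344) and among rows above the median mean level alone (adjusted p = 0.0347), with 0.0344 to 0.257 over 15 alternatives. Serpini1, which encodes neuroserpin, an inhibitor of tissue plasminogen activator, read 3.54, 3.64 and 3.84 in control and 3.88, 4.05 and 4.22 in knockout arrays. Each knockout array is above each control array, the nearest pair at 3.84 and 3.88, and the difference of 0.38 (95% interval 0.10 to 0.65) did not pass (limma adjusted p = 0.0943). It passed among rows above the median mean level (adjusted p = 0.0418; 0.0418 to 0.237 over 15 alternatives). Serpinh1, a chaperone of collagen rather than an inhibitor, read 3.19 ± 0.14 and 3.28 ± 0.029. Serping1, the C1 inhibitor of complement, read 1.77 ± 0.06 and 1.92 ± 0.26.

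**Figure D3:**
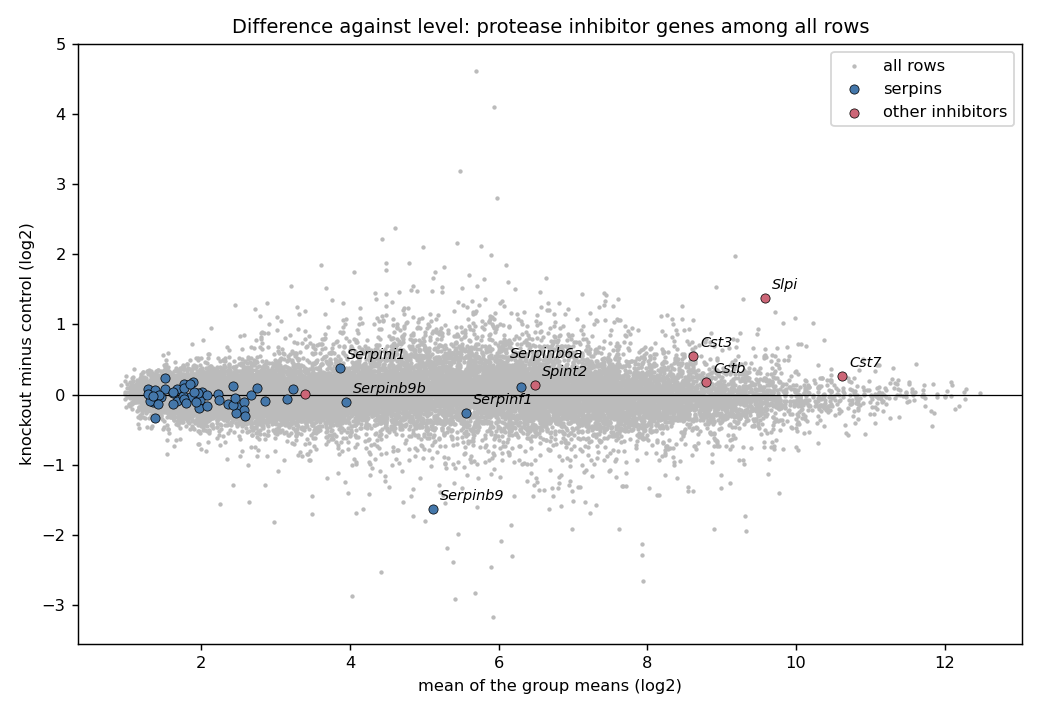
Difference between knockout and control (log2) against the mean of the group means (log2) for all 25206 rows in grey, the 56 serpins in blue and the 6 other inhibitors in red; genes above 3.6 are named. Most serpins lie at the left end near 0, Serpinb9 lies at -1.63 and Slpi at 1.38.

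Other protease inhibitors came from a list of 58 genes, of which 54 had a named row. Of these 4 rose, 1 fell and 49 did not pass, or 9.26% called against 9.75% of all rows, with a median difference of -0.042. The 12 that read above 3.6 hold all of these calls, 4 higher and 1 lower. Of all rows above that value 10.3% passed as higher and 7.77% as lower. The rises were those of Cst10, Wfdc5 and Wfdc12 described above and of Ctla2a. Ctla2a, a gene of activated lymphocytes and mast cells whose product resembles a cathepsin propeptide and inhibits cathepsin L-like enzymes, read 8.21, 8.52 and 8.45 in control and 9.31, 8.90 and 9.35 in knockout arrays. Its difference was 0.79 (limma adjusted p = 0.0115), and without moderation of the variance it missed (adjusted p = 0.1; 0.0011 to 0.1 over 15 alternatives). Its relative Ctla2b differed by 0.32 and did not pass (adjusted p = 0.137). Tfpi, the gene of tissue factor pathway inhibitor, fell by 0.48 (limma adjusted p = 0.0198) and lost the call when control replicate 2 or 3 or knockout replicate 1 or 2 was left out (adjusted p 0.0598 to 0.0809). The 4 metalloprotease inhibitors Timp1 to Timp4 and the 7 measured Spink genes did not pass, and 0 of the 11 had an unadjusted p under 0.05. The stefin genes Stfa1 (difference 0.58) and Stfa3 (0.83), cytosolic relatives of Cstb, did not pass either (adjusted p = 0.139 and 0.151).

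The proteases that such inhibitors meet, with receptors that proteases cleave or bind, formed a list of 53 genes with 51 named rows. Of these 5 rose, 6 fell and 40 did not pass, or 21.6% called against 9.75% of all rows, with a median difference of 0.017. Of the 24 that read above 3.6, 11 passed, where 18% of all rows at such values did. Of the other 27 none passed limma's test and 3 had an unadjusted p under 0.05.

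Granzymes, the serine proteases of cytotoxic granules, had 10 measured genes, of which 2 fell and none rose, where 4.24% of all rows, and 7.77% of those above 3.6, fell. Gzmb, the target of Serpinb9, read 12.02, 12.09 and 12.06 in control and 11.64, 11.53 and 11.64 in knockout arrays. It fell by 0.45 (limma adjusted p = 0.0109) and lost the call without control replicate 2 (adjusted p = 0.0503; 2.6e-05 to 0.0503 over 15 alternatives). The highest value on any array was 12.43 to 12.51, and near it a signal can saturate, so the difference of Gzmb can be understated. Gzmc read 6.09, 6.96 and 6.71 in control and 4.13, 3.98 and 4.47 in knockout arrays, a difference of -2.39 (limma adjusted p = 0.000641). The groups do not overlap for either gene. Gzma (11.11 and 10.94 in control and knockout, adjusted p = 0.382) and Gzmk (4.30 and 3.88, adjusted p = 0.0882) did not pass. Elane and Ctsg, the neutrophil elastase and cathepsin G genes that encode classical targets of SLPI, read 3.13 ± 0.12 and 2.97 ± 0.042, and 2.41 ± 0.036 and 2.22 ± 0.14. Both are under 3.6, and neither passed.

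Of 14 measured cathepsins 3 rose and 1 fell, where 5.51% of all rows rose and 4.24% fell. Above 3.6, where 9 of the 14 lie, 10.3% of all rows rose and 7.77% fell. The papain-like cysteine enzymes, the kind that cystatins block, are 10 of the 14, and 2 of them rose and 1 fell. Ctsh, an aminopeptidase of lysosomes, read 5.24, 5.47 and 5.58 in control and 6.64, 6.65 and 6.81 in knockout arrays (difference 1.27, limma adjusted p = 0.000512). Ctsz rose by 0.70 (adjusted p = 0.00188), and Ctsa, a serine carboxypeptidase that is no papain-like enzyme, rose by 0.56 (adjusted p = 0.0049). Ctss, a cysteine protease of antigen presentation and a target of cystatin C, fell in contrast, from 7.71, 7.77 and 7.70 to 6.46, 6.43 and 6.34 (difference -1.32, adjusted p = 0.000113). Its groups are more than 1 log2 unit apart. Ctsc, which activates granzymes and is held in check by cystatin F, read 10.52 and 10.46 (difference -0.05, 95% interval -0.24 to 0.13). Ctsl differed by -0.30 (adjusted p = 0.0857), Ctsb by 0.24 (adjusted p = 0.107) and Ctsd by 0.28 (adjusted p = 0.0852), and none of these passed.

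Legumain (Lgmn), an asparaginyl protease of lysosomes that cystatin C also inhibits, read 9.67, 9.72 and 9.76 in control and 10.75, 10.73 and 10.74 in knockout arrays. It rose by 1.02 (limma adjusted p = 0.000277). The knockout arrays lie close together and above every control array. Casp1, the inflammasome protease, fell by 0.60 (adjusted p = 0.008) and missed without moderation of the variance (adjusted p = 0.052; 0.000523 to 0.052 over 15 alternatives). F2r, the thrombin receptor, fell by 0.46 (adjusted p = 0.0102). Furin, a proprotein convertase, fell by 0.32 (adjusted p = 0.0442) and lost the call whichever array was left out (adjusted p 0.0715 to 0.132). Plaur, the urokinase receptor, rose by 0.37 (adjusted p = 0.0456) and kept the call without control replicate 1 alone among those 6 fits (adjusted p 0.0265 to 0.154).

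**Figure D4:**
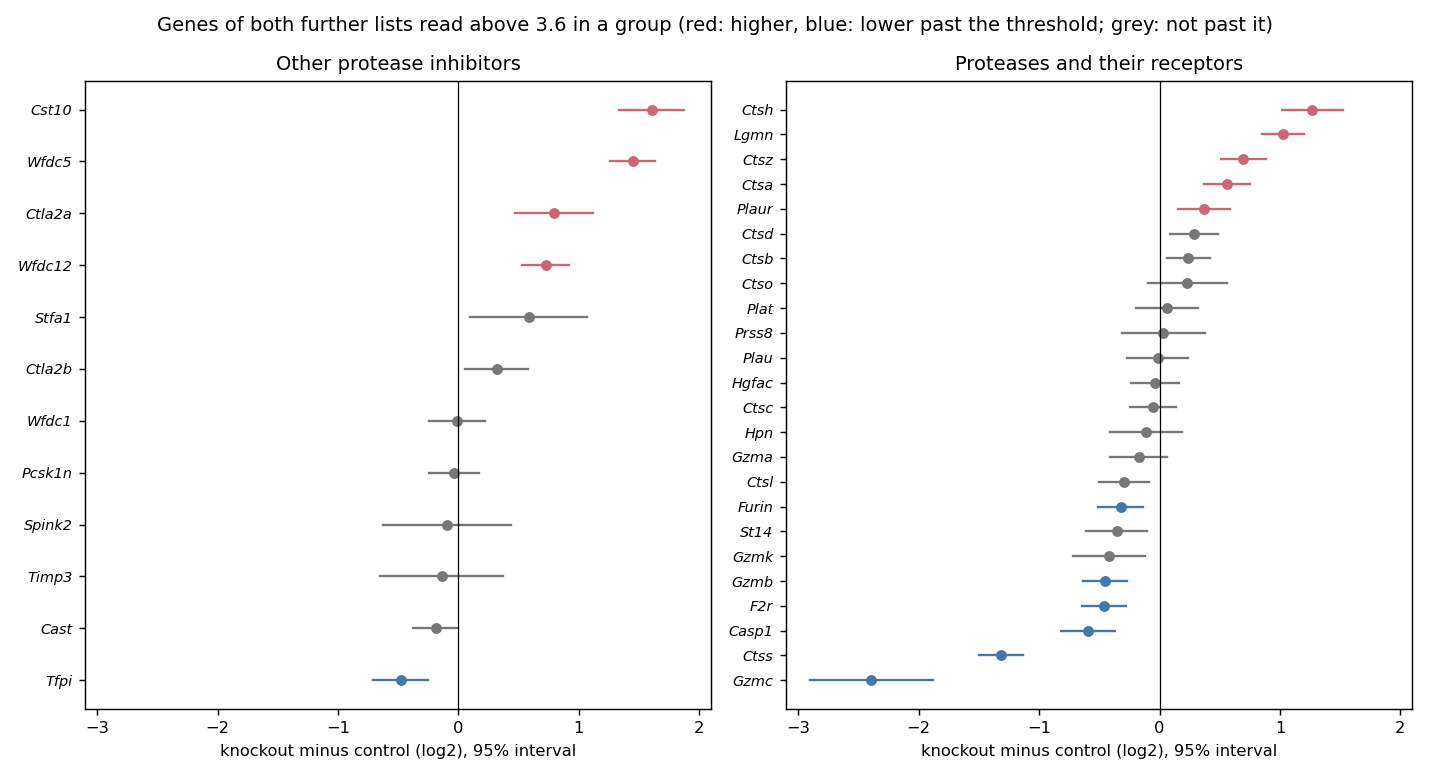
Difference between knockout and control (log2) with its 95% interval for the genes above 3.6 among the other protease inhibitors (12 genes, left) and among the proteases and their receptors (24 genes, right). Cst10 (1.60) and Wfdc5 (1.45) lead the inhibitors that rose, and the proteases run from Gzmc at -2.39 to Ctsh at 1.27.

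Cell type markers were read on the same arrays. Of 11 measured ILC2 genes, Gata3 (10.58 and 10.68 in control and knockout) and Ptprc (10.69 and 10.77) read well above 3.6 and Thy1 read 3.41 in both groups. In this list 45.5% of genes passed, against 9.75% of all rows. Rora, a transcription factor of the ILC2 lineage, rose from 3.32 to 5.53 (difference 2.22). Icos (-0.78), Il7r (-0.56), Id2 (-0.35) and Il5 (-0.33) fell, and the part of these genes in the results was not tested. No gene passed limma's test among 6 epithelial markers (0 with an unadjusted p under 0.05, sums 26.54 to 27.14 and 26.45 to 26.8), and 1 passed in each of the fibroblast (Dcn, 0.65), mast cell (Cpa3, -2.91) and T cell (Trac, -0.61) lists of 6, 8 and 6 genes. Their summed log2 values were 20.56 to 22.20 and 20.88 to 22.74 for fibroblast, 22.52 to 23.75 and 18.95 to 21.18 for mast cell, and 23.35 to 24.11 and 22.36 to 22.94 for T cell genes in control and knockout arrays. The part of these cell types in the results was not tested. In bulk RNA, fewer cells of a type and less RNA per cell cannot be told apart.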

How the data were processed

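RNA isolated with Trizol from sorted cells was measured on 1-colour arrays, 3 per group, per the labels' protocols. The deposited table holds log2 expression values for 25206 rows, 1 per Entrez gene. RMA and limma 3.14.4 are listed in the submitters' processing notes, with no role given, and the log2 scale was read from the values, 0.66 to 12.51. RMA, where applied, quantile-normalises arrays, so a shift of most genes in 1 direction is not measurable. Symbols came from the platform annotation through Entrez numbers and RefSeq (GRCm38.p6): 23185 rows have 1 symbol, 0 have several and 2021 have none.

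Values were used as deposited. The test was limma 3.58.1 in R 4.3.3 (1 coefficient per group, knockout minus control, moderated and two-sided), with Benjamini-Hochberg adjustment over all 25206 rows and a threshold of 0.05. Its code was run on simulated arrays with independent noise and planted changes, which cannot show how it behaves where arrays depend on each other.

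Named were all of the 62 genes past the threshold or above 3.6, the 6 that are no serpins, 12 serpins chosen by role, and per further list up to 4 genes past the threshold, by smallest adjusted p. Of the 18 genes chosen by name 3 were not analysed here. Further genes were named after their values were seen. Genes and lists were chosen with earlier results of these data known. Alternatives tried: a replicate block, each array left out, 2 other normalisations, a level filter, a trended and robust prior, no moderation, named rows alone and other thresholds. The other thresholds re-read the main fit and are counted among the alternatives.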

Additional observations from a re-analysis of the deposited data

How the results depend on the processing

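Alternatives were run for 55 genes, which are not all of those named here and leave out the cell type markers. The alternatives include thresholds of 0.01 and 0.1, which re-read the main fit and cannot turn a direction. Of the 808 results, 732 kept the direction and the side of the threshold. Another 43 fell short of it, 25 newly passed and 8 turned direction. Turned were genes that did not pass: leaving out 1 array, Spint1 lay between -0.087 and 0.11, Serpina3f between -0.03 and 0.12, Serpina3n between -0.28 and 0.022 and Serpinb6a between -0.0067 and 0.20. Leaving out 1 array kept 2 of the 62 genes higher and 1 lower, while all rows called went from 2457 to between 1307 (without control replicate 2) and 1837. The 8 genes without overlap became 11 to 20, and the share of all rows was not worked out for that count. Without control replicate 3, knockout replicate 2 or knockout replicate 3 the rows called were 1565, 1478 and 1517. Without moderation 1 gene was higher, 0 lower (Serpinb9 differed by -1.63 as before), 3 of the other inhibitors changed and 1254 rows were called. At a threshold of 0.01 these were 1, 0, 3 and 966, with 7 of the proteases, against 11. At 0.1, 4 were higher. Among rows above the median mean level, which hold 10 of the 62 genes, 4 were higher and 2 lower, with fewer rows tested, and the median difference of those 10 was 0.16. Over all 62 genes the median was -0.012, and -0.029 to 0.0033 with 1 array left out. A second quantile normalisation gave 2 lower. With the replicate number as a block 2 were higher, 1 lower and 1745 rows called. No source states that same-numbered arrays are paired. Same-numbered arrays deviated together at correlations of 0.025, 0.0067 and 0.054, and the other pairs at -0.065 to 0.044. With 3 arrays per group these values cannot settle whether the arrays are paired. Under the block Furin (adjusted p = 0.0972), Plaur (0.0847) and Syndig1 (0.0846) missed and Stfa1 passed (0.0215).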
